A study of Mus musculus with 4 samples.

Results

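CD8 T cells in S phase were 628 of the 24893 cells in 4 single-cell RNA libraries of virus-specific CD8 T cells. A cell counted as a member when it held at least 5 transcripts, counted as unique molecular identifiers (UMIs), summed over 8 mRNAs of DNA replication (Mcm3, Mcm5, Mcm6, Rrm2, Tyms, Lig1, Ung and Tk1) and fewer than 5 summed over 8 mRNAs of mitosis (Birc5, Ccnb1, Ccnb2, Cenpa, Cdc20, Ube2c, Cenpf and Top2a). It also had to hold at least 1 UMI of Cd8a or Cd8b1, the chains of the CD8 co-receptor, none of the B cell genes Cd79a and Ms4a1, and at most 1 of the macrophage genes Csf1r and C1qb. All cells showed 500 or more genes, with mitochondrial UMIs at or under 10%. The members were thus chosen by their UMI counts of these genes, so their levels beside those of other cells are given as descriptions, without a test. Tests compare KO with WT, among S-phase cells or as the difference of that contrast between cell classes.

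The cells came from mixed bone marrow chimeras on the C57bl/6 background, in which WT (CD45.1) and Bcl3-/- (CD45.2) marrow had been given together to irradiated Rag1-/- mice. At least 6 weeks later the mice were infected with lymphocytic choriomeningitis virus (LCMV) Armstrong, and on day 8 splenic CD8 T cells that bound the H-2Db tetramer of the viral GP33 epitope were sorted by CD45 allele. WT1 and KO1 are the libraries labelled WT and Bcl3-/- with the number 1, taken as chimera 1. WT2 and KO2 are those with the number 2, taken as chimera 2. The study sorted both genotypes from the same chimeric animal, but pairing the libraries by number is an inference. Each genotype thus has 2 libraries, and both genotypes of a number are taken to share 1 animal. The chimeras came from separate experiments, so that chimera and experiment cannot be told apart. The Bcl3-/- marrow carried the mutant allele in every blood lineage, while the host without Rag1 could make no T cells of its own.

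Before DNA can be copied, the ORC and Cdc6 proteins load the ring of Mcm proteins, the replicative helicase, at each origin. In S phase the polymerases and the clamp Pcna copy the DNA, ribonucleotide reductase and thymidylate synthase supply its building blocks, and histones are made to package it. E2F factors switch on many of these genes at the end of G1, and antigen-activated CD8 T cells pass through this program many times while they expand against a virus. Bcl-3, a relative of the IkB inhibitors, binds NF-kB dimers on DNA and can raise or lower transcription there.

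Promoters of 2 members of the helicase, Mcm5 and Mcm6, and of the cyclin-dependent kinase Cdk1 are shown because they carry E2F-type letters and belong to genes that were high together in the S-phase cells. The letters searched were TTTCGCGC, TTTGGCGC, TTTCCCGC and TTTGCCGC on both strands, and matches are in capitals. Where matches overlap on opposite strands, as in Mcm5 and Mcm6, the capitals run on. Each sequence is the 250 bases upstream of the RefSeq gene start, read 5′ to 3′ along the gene, in build GRCm38.p6. They lie at chr8:75109259-75109508 on the plus strand for Mcm5, at chr1:128359706-128359955 on the minus strand for Mcm6 and at chr10:69352913-69353162 on the minus strand for Cdk1.
Mcm5: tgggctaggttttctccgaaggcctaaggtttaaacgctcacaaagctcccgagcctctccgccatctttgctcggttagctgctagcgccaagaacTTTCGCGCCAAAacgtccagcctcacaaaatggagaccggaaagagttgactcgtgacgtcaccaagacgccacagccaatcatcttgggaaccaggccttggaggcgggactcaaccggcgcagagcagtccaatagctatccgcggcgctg
Mcm6: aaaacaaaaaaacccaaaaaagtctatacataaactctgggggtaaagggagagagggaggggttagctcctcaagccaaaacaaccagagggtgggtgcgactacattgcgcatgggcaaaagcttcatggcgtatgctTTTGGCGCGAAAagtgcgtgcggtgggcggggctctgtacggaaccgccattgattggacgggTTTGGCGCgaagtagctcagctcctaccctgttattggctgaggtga
Cdk1: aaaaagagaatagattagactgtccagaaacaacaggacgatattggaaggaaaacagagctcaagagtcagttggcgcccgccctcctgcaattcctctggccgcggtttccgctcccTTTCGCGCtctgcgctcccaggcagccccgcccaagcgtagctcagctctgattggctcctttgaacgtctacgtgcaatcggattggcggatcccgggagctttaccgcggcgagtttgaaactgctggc

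In windows of 300 bases, from 250 before to 50 after the start, these letters were in 704 of 27025 genes (2.61%). They were in 4 of the 8 replication genes that defined S-phase cells (Lig1, Mcm3, Mcm5 and Mcm6) and in 0 of the 8 mitotic genes. Of the 19 genes of replication licensing, 14 had a window and 8 of these held the letters, against 8 of 25 for the polymerases and the fork, 1 of 19 for nucleotide synthesis and 1 of 21 for mitosis. None of the 13 effector and cytotoxic genes with a window held them. A match is a run of letters and does not show a bound factor.

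Of the 628 cells, WT1 gave 180, WT2 220, KO1 99 and KO2 129. CD8 T cells by the same exclusion of other lineages were 4514, 7297, 4868 and 5990. In all 677 cells met both sums, and those left out were 11 without a CD8 UMI, 31 with a B cell UMI and 9 with macrophage UMIs, some for more than 1 reason. S-phase cells were deep: the median UMIs per cell in WT1, WT2, KO1 and KO2 were 5841, 3215, 6306 and 4396, against 3414, 1964, 3535 and 2881 in CD8 T cells outside S phase and mitosis. The median of KO libraries was 823 UMIs above that of WT libraries, with overlapping groups (exact 2-sided permutation p = 0.67), and the sign of this difference turned when either WT2 or KO1 was left out. WT2 was the shallowest library in each class. Barcodes shared with a cell of another library were carried by 4, 4, 1 and 2 of the S-phase cells.

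The replication sum was modest in most cells, with a median of 8, 8, 10 and 9 UMIs in WT1, WT2, KO1 and KO2 and a highest value of 32, 28, 34 and 36. It was seldom carried by a single gene: the median cell had UMIs of 5 of the 8 genes, and 25 of the 628 had UMIs of 2 or fewer. Mcm6 supplied the most UMIs in every library, from 20.6% of the sum in WT2 to 24.7% in KO1, and Ung the fewest. Just inside the limit, 31, 39, 14 and 29 cells of WT1, WT2, KO1 and KO2 had a sum of exactly 5, and just outside it 74, 61, 42 and 42 had exactly 4. Their median depths in the same order were 5325, 2768, 5603.5 and 3751 UMIs inside and 4610.5, 3024, 4576 and 3513 outside. Of 167 B cells, 1 reached a sum of 5 at median depths between 1446 and 2167 UMIs. They were shallower than the S-phase cells and whether they divided was not tested, so they are no check of the limit.

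Bcl3, a gene of chromosome 7 (minus strand, 19808462 to 19822770 in build GRCm38), was the gene by which the genotypes differ. Values of KO against WT in single genes are given in CPM (a gene's UMIs scaled to the same total in every library), after TMM normalisation, over the summed S-phase cells of each library. In chimera 1, Bcl3 stood at 23.7 CPM in WT1 and 11.3 in KO1, and in chimera 2 at 99.5 in WT2 and 87.0 in KO2. KO was below WT within each chimera, at a log2 difference of −1.02 and −0.19, but the genotypes overlapped because both libraries of chimera 2 were high. The log2 fold change was −0.24 ± 0.72 (SE) with an adjusted p of 0.97 in edgeR's quasi-likelihood test. It was −1.01 without WT1, 1.03 without WT2, 0.56 without KO1 and −2.36 without KO2, so that its sign turned when WT2 or KO1 was left out. It passed edgeR's test without WT1 and without KO2, but there 1 genotype is a single library that is assumed to vary like the other group, and these values are no call of Bcl3. Which exons the allele lacks is not given in the sources used here, so these 3′ counts do not check the labels.

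S-phase cells made up 3.99% of CD8 T cells in WT1 (95% Clopper-Pearson interval 3.44 to 4.60) and 2.03% in KO1 (1.66 to 2.47). In chimera 2 they made up 3.01% in WT2 (2.63 to 3.43) and 2.15% in KO2 (1.80 to 2.55). Both WT libraries lay above both KO libraries, at 3.50% ± 0.69 against 2.09% ± 0.085 (SD, n = 2). The difference of −1.41 percentage points had an exact 2-sided permutation p of 0.33, the smallest that 2 libraries against 2 allow, and was −1.95 in chimera 1 and −0.86 in chimera 2. It was smaller, at −0.82, with both limits at 8 UMIs, and at −0.92 without WT1. With both limits at 3 it was −1.60 and came mostly from chimera 1, since the shares were 7.75% in WT1 and 4.70% in KO1 against 5.002% in WT2 and 4.86% in KO2. The intervals cover counting error only. Depth was set equal by thinning each cell to 1000 UMIs with both limits at 2, which kept 4497 of 4514, 7137 of 7297, 4858 of 4868 and 5981 of 5990 CD8 T cells. In the same order the shares were then 4.71%, 5.16%, 3.21% and 3.51%, and KO minus WT was −1.57 with the same p in the exact permutation test. Thinning to 2000 UMIs with both limits at 3 kept only 3763 of 7297 CD8 T cells of WT2. The shares were then 4.93%, 7.41%, 2.10% and 3.05%, and KO minus WT was −3.60.

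Mitotic cells, with at least 5 UMIs of the mitotic genes, were 9.77%, 7.17%, 6.61% and 7.05% of CD8 T cells in WT1, WT2, KO1 and KO2, a difference of −1.64 percentage points that was −3.15 in chimera 1 and −0.12 in chimera 2. Among all cycling cells, S phase plus mitotic, S-phase cells were 29.0% (25.4 to 32.7) in WT1 against 23.5% (19.5 to 27.9) in KO1, and 29.6% (26.3 to 33.0) in WT2 against 23.4% (19.9 to 27.2) in KO2. The genotypes did not overlap in this share either, and KO minus WT was −5.83 points (exact 2-sided permutation p = 0.33). It did not keep its size with both limits at 3 UMIs, where the shares were 36.1%, 34.1%, 33.3% and 34.5% in WT1, WT2, KO1 and KO2 and the groups overlapped, a difference of −1.18 (exact permutation p = 0.67). Nor did it under thinning to 1000 UMIs, where the shares were 37.7%, 40.4%, 37.8% and 35.2% and the groups overlapped, a difference of −2.55 (exact permutation p = 0.67).

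**Figure D1:**
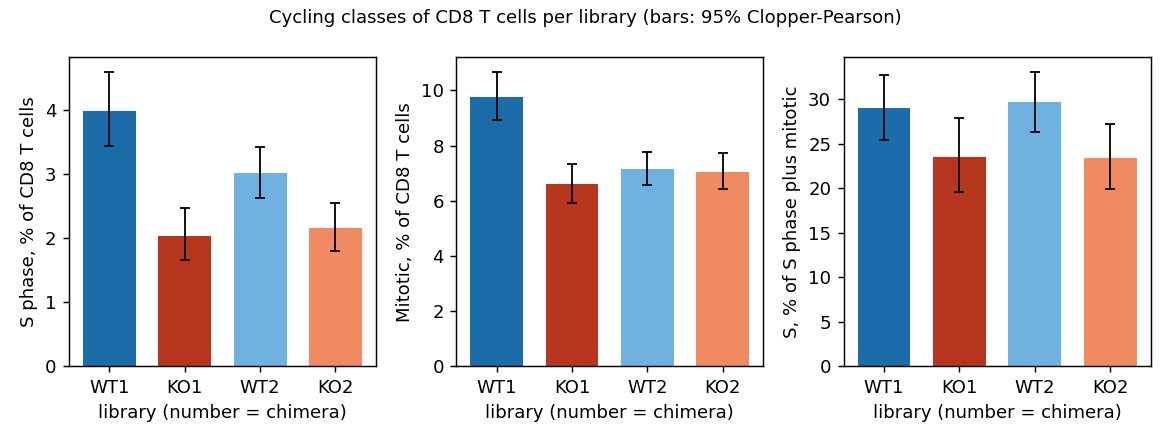
Percent of CD8 T cells in S phase (left), percent in mitosis (middle) and S-phase cells as a percent of S-phase plus mitotic cells (right) in each of the 4 libraries, with 95% Clopper-Pearson intervals for counting error. KO bars lie below WT bars of the same chimera in all panels, by 0.12 percentage points only for mitotic cells of chimera 2.

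The 8 replication genes give the scale of the choice. Levels between classes are given as CPM of a class in a library, and differences as log2 ratios of CPM + 1. Lig1, the ligase that joins Okazaki fragments, stood at 200, 315, 214 and 267 CPM in WT1, WT2, KO1 and KO2, against 9.78, 14.6, 6.63 and 8.61 in CD8 T cells outside S phase and mitosis. Rrm2, the small subunit of ribonucleotide reductase, stood at 252, 451, 307 and 382 CPM against 17.4, 18.3, 14.6 and 16.3. Taking for each gene the library where the ratio was nearest 0, the log2 ratio was 4.22 for Lig1, 3.78 for Rrm2, 3.54 for Ung, which removes uracil from DNA, 3.52 for Mcm5, 3.27 for Mcm3, 2.41 for the thymidine kinase Tk1, 2.31 for Mcm6 and 2.14 for the thymidylate synthase Tyms. Against mitotic cells the same value was 1.41 for Mcm3, 1.36 for Ung, 1.23 for Mcm6, 1.07 for Mcm5 and 0.95 for Lig1, whereas Rrm2, Tyms and Tk1 were about as high in mitotic cells. Mean levels over the 4 libraries were 348 CPM in S-phase and 407 CPM in mitotic cells for Rrm2.

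Of the mitotic genes, kept low by the choice, Top2a, the topoisomerase that untangles replicated DNA, was higher in S-phase cells than outside S phase and mitosis in every library, with a log2 ratio between 2.63 and 2.81. Cenpa, the centromeric histone, and Ube2c, a ubiquitin-conjugating enzyme of anaphase, differed in sign between libraries. Ccnb2, a mitotic cyclin, averaged 31.7 CPM in S-phase cells, 17.8 outside and 500 in mitotic cells.

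Most of the 15 highest genes that the choice did not use are known for DNA replication. Of 7341 genes with at least 10 CPM in either class, 1934 were higher and 1551 lower in S-phase cells than in CD8 T cells outside S phase and mitosis in all 4 libraries, and the median log2 ratio was 0.0035. All 16 other genes of replication licensing were higher in all 4 libraries, with a median log2 ratio of 2.64. Cdc6, the loader of the helicase, stood at 42.7, 65.9, 49.6 and 44.0 CPM in WT1, WT2, KO1 and KO2 against at most 2.06 CPM outside. Gins2, part of the active helicase, stood at 77.3, 79.8, 79.0 and 77.0 CPM against 3.76 to 5.95. The helicase subunit Mcm7 stood at 207, 336, 181 and 239 CPM against 22.1 to 32.5. The libraries of either genotype were high for each of these genes, with no overlap between the classes.

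Genes of the polymerases and the fork were higher in 28 of 28, with a median log2 ratio of 2.04. Clspn, which couples the fork to the checkpoint kinase, had the largest ratio of all genes outside the choice, 4.07 in its nearest library, with 51.8, 96.3, 68.2 and 48.7 CPM against 1.57 to 4.79. Prim1, the primase that starts each strand, had 92.8, 137, 94.5 and 89.6 CPM against 7.46 to 16.3. Checkpoint and repair genes were higher in 14 of 15 (median 2.19). Timeless, a fork protection protein, had a log2 ratio of at least 3.17 in each library. 2810417H13Rik, also known as Pclaf, encodes a partner of Pcna and had 417, 821, 542 and 703 CPM against 18.1 to 35.1.

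Nucleotide synthesis genes were higher in 16 of 17 (median 1.23). For genes of the G1/S transition and E2F, 14 of 19 were higher and 2 lower (median 1.53). E2f1, a factor that switches these genes on, stood at 62.7, 111, 75.9 and 104 CPM against 3.31 to 6.80, and Mybl2, itself an E2F target, had a log2 ratio of at least 3.21. Histone and chromatin assembly genes were higher in 17 of 19 (median 1.48). The histone chaperone Asf1b had 112, 228, 150 and 219 CPM against 9.79 to 14.7, and Chaf1a, of the assembly factor that follows the fork, had a log2 ratio of at least 3.04. All 12 genes of DNA methylation and Polycomb were higher (median 1.12). Cdca7, a chromatin protein linked to DNA methylation, had a log2 ratio of at least 2.84 in each library.

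Against mitotic cells the order of the groups differed. Licensing genes were higher in S-phase cells than in mitotic cells in all 4 libraries for 13 of 16 and lower for 1, and polymerase and fork genes for 21 and 1 of 28. Of all 7341 genes, 1105 were higher and 1194 lower than in mitotic cells in all 4 libraries. Histone and chromatin genes were higher for 4 and lower for 13 of 19, and all 16 genes of G2 and mitosis outside the choice were lower. Beside cells outside both classes, 14 of these 16 were higher in S-phase cells in all 4 libraries and 1 lower, with a median log2 ratio of 2.16. Cdk1, the kinase that drives entry into mitosis, averaged 67.7 CPM in S-phase and 129 CPM in mitotic cells against 5.85 outside both.

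The 10 genes of at least 50 CPM with the lowest ratios were of mixed kinds. Among them Bcl2, which protects resting lymphocytes from death, stood at 74.6, 82.3, 80.5 and 64.5 CPM in WT1, WT2, KO1 and KO2 against 156, 149, 145 and 137 outside S phase and mitosis. Btg1, an antiproliferative gene, stood at 443, 491, 445 and 574 CPM against 786, 966, 894 and 1075. Tcf7, the transcription factor of memory and naive T cells, stood at 25.5, 21.5, 31.0 and 18.9 CPM against 46.9 to 61.0. Pik3ip1, a brake on PI3-kinase signalling, had a log2 ratio between −1.44 and −1.04, and Hbp1, a repressor of the cell cycle, one between −1.45 and −0.99. The lowest log2 ratios were those of Retnlg, a neutrophil gene, between −2.93 and −1.69. Memory precursor genes were lower in all 4 libraries for 6 of 7 (median −0.85), terminal effector genes for 7 of 9 (median −0.61) and interferon-stimulated genes for 11 of 15 (median −0.35). Effector and cytotoxic genes were higher for 1 and lower for 4 of 15 (median −0.23), and glycolysis genes higher for 10 and lower for 2 of 14 (median 0.28). Against mitotic cells, memory precursor genes were higher in all 4 libraries for 1 and lower for 2 of 7. Terminal effector genes were higher for 0 and lower for 1 of 9, and interferon-stimulated genes for 3 and 3 of 15.

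**Figure D2:**
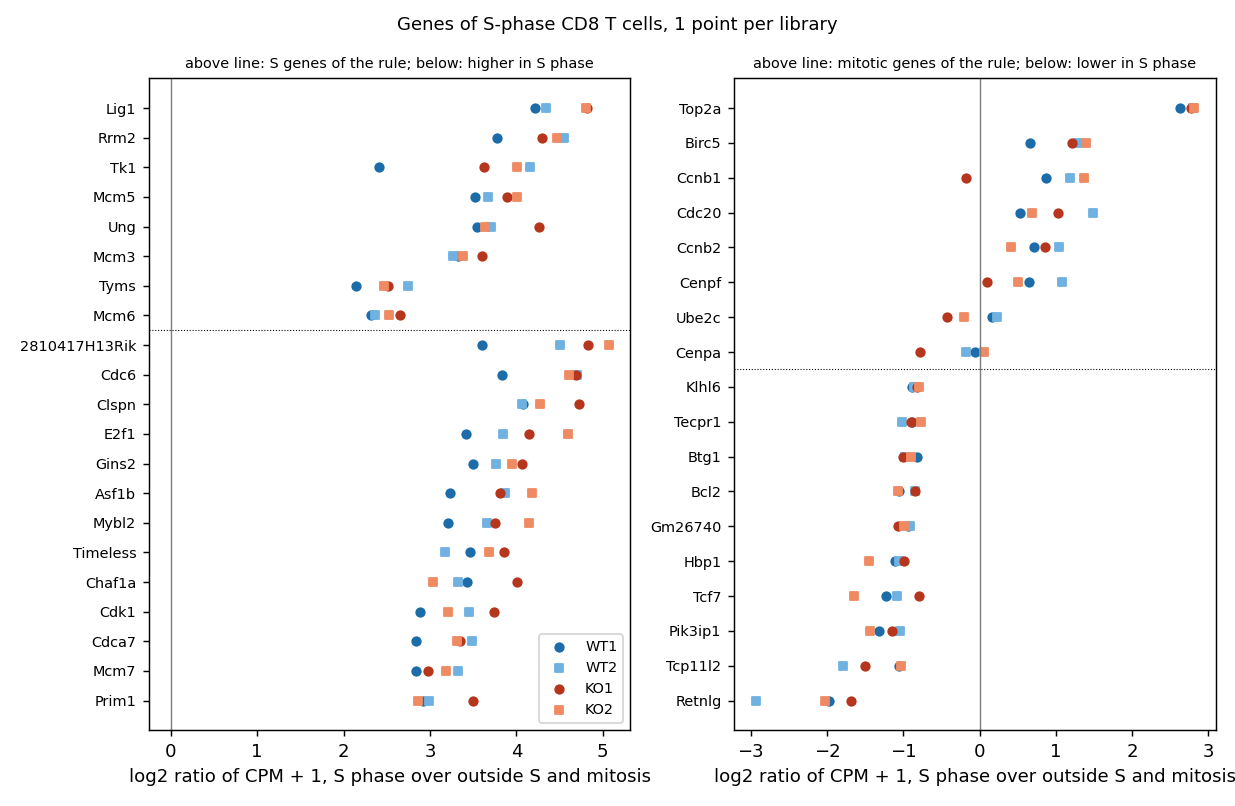
Log2 ratio of CPM + 1 in S-phase cells over CD8 T cells outside S phase and mitosis, 1 point per library, for the replication genes of the choice and 13 of the 15 highest other genes (left) and the mitotic genes of the choice and the 10 lowest other genes (right). Lig1 lies above 4 in all libraries, the 13 other genes above 2.8, and WT1 gives the lowest point for most of them.

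Within the class, cells differed in how far mitotic mRNAs had appeared. No mitotic UMI was found in 46 cells of WT1 (25.6%), 64 of WT2 (29.1%), 25 of KO1 (25.3%) and 46 of KO2 (35.7%). Hist1h2ap, a histone of the replication-dependent H2A type, stood at 135, 258, 306 and 14.2 CPM in these cells in WT1, WT2, KO1 and KO2. In cells with 1 mitotic UMI it stood at 233, 429, 212 and 68.3 CPM, and in cells with 2 to 4 at 1269, 2334, 1257 and 694 CPM. It was highest in the last group in every library, and lowest in KO2 in every group. Mki67, the proliferation antigen Ki-67, stood at 21.8, 33.5, 13.3 and 42.7 CPM without a mitotic UMI and at 57.1, 88.0, 47.1 and 88.2 CPM with 2 to 4. H2afz, a histone variant made throughout the cycle, ranged from 1629 to 1799 CPM without and from 2203 to 2786 CPM with 2 to 4 mitotic UMIs. The helicase subunit Mcm4 was lower with 2 to 4 than without any mitotic UMI in WT1, KO1 and KO2 and higher in WT2, where it had 187 and 219 CPM. Mcm7, another subunit, was higher with 2 to 4 in all 4 libraries. It had 179, 301, 146 and 199 CPM without and 227, 378, 195 and 301 CPM with 2 to 4 mitotic UMIs. The loader Cdc6 was also higher with 2 to 4 in all 4 libraries. Cells with 2 to 4 mitotic UMIs were also the deepest in each library.

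Hist1h2ap also followed the replication sum. At sums of 5 to 9 it stood at 329, 805, 206 and 160 CPM, at 10 to 19 at 553, 1482, 742 and 335 CPM, and at 20 or more at 3059, 4263, 1883 and 871 CPM, the last in 18, 7, 15 and 10 cells. KO2 was lowest at every sum.

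**Figure D3:**
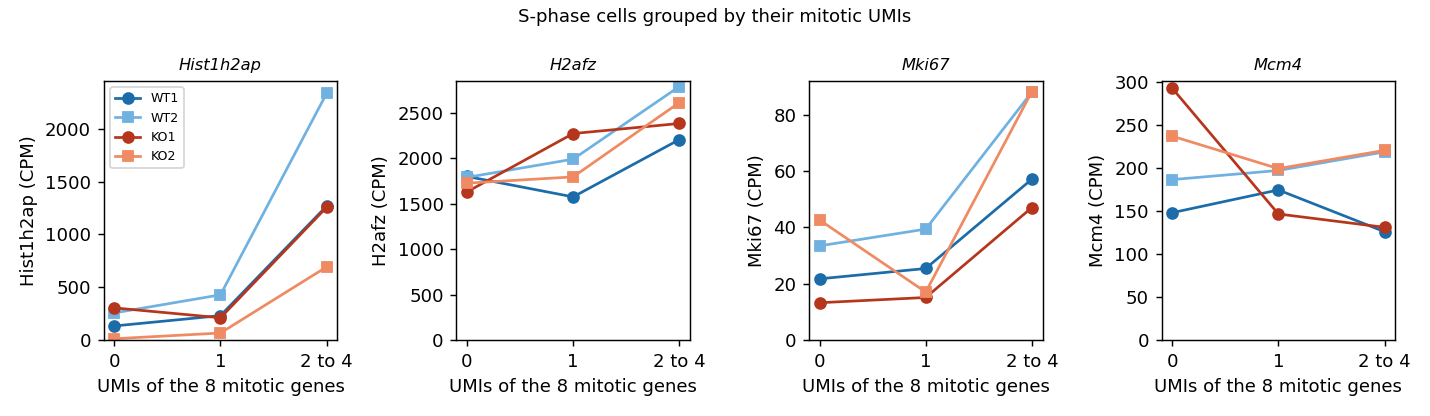
CPM of Hist1h2ap, H2afz, Mki67 and Mcm4 in S-phase cells with 0, 1 or 2 to 4 UMIs of the mitotic genes, 1 line per library. Mcm7 and Cdc6, not drawn, were higher at 2 to 4 than at 0 mitotic UMIs in all 4 libraries, unlike Mcm4. Hist1h2ap is highest at 2 to 4 mitotic UMIs in all 4 libraries, from 694 CPM in KO2 to 2334 CPM in WT2.

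To ask whether WT and KO cells stood at a like point of S phase, the 16 other licensing genes were set against 11 Hist1 and Hist2 genes. The licensing genes summed to 1228, 1654, 1351 and 1413 CPM in WT1, WT2, KO1 and KO2, and the histone genes to 822, 1305, 762 and 333 CPM. Of the histone sums, Hist1h2ap alone gave 773, 1234, 716 and 296 CPM. The log2 ratio was 0.58, 0.34, 0.83 and 2.08. Both KO libraries lay above both WT libraries, by 0.99 on average (exact permutation p = 0.33), but the chimeras gave 0.25 and 1.74. KO2 alone had few histone UMIs, and without it the difference was 0.37. The ratio thus rests almost on Hist1h2ap, which was lower in KO outside S phase and mitosis too (log2 fold change −2.19). It therefore does not show at which point of S phase the cells stood. The reads of Hist1h2ap cannot be told from those of other genes, since all of its 3′ windows of read length also occur in other genes.

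Some members held much RNA of other lineages. At least 10 UMIs summed over S100a8, S100a9, Camp, Elane, Mpo, Lyz2, Prss34, Mcpt8 and Jchain were found in 11 of the 628 cells (1.75%), of which WT2 held 4, KO1 6, KO2 1 and WT1 0. One KO1 cell held 1461 UMIs of S100a8 and 811 of S100a9, the neutrophil calprotectin chains, beside 2 of CD8. A WT2 cell held 421 UMIs of Prss34 and 359 of Mcpt8, proteases of basophils and mast cells, and another WT2 cell 98 of Mpo and 60 of Elane, proteins of neutrophil precursors. The granulocyte list summed to 278, 410, 4577 and 292 CPM in the S-phase cells of WT1, WT2, KO1 and KO2 and to 1265, 623, 1621 and 1754 CPM outside S phase and mitosis, with S100a8 the most abundant gene outside and none of its 5 genes at 0. B cell markers summed to at most 34.2 CPM, with Cd79a and Ms4a1 at 0 by the choice, and CD4 T cell markers to at most 6.29 CPM, with Foxp3 at 0. Myeloid markers summed to 214, 422, 435 and 508 CPM, led by Lyz2, and plasma cell markers to 157, 347, 178 and 165 CPM, led by Jchain. Their part in the results was not tested beyond leaving these 11 cells out.

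Of 6282 genes tested between KO and WT S-phase cells, again in normalised CPM, edgeR called 10 higher (0.159%) and 1 lower (0.0159%) in KO at an adjusted p under 0.05, or 0.175% in all, and 441 had an unadjusted p under 0.05. None of the 11 was called without the deepest 5% of cells, where edgeR called no gene and 407 had an unadjusted p under 0.05. There the log2 fold change was 1.78 for Cdk2ap1, 2.91 for Gm12840 and −2.41 for Gbp6, against 1.80, 2.93 and −2.59 with all cells. Without KO1 the calls of Cdk2ap1, AY036118 and Gm12840 were kept and the other 8 lost, and DESeq2 called 10 of the 11. All 11 had the same sign in each of these settings. With chimera as a block, which leaves 1 residual degree of freedom, it called 80 higher (1.27%) and 48 lower (0.764%), or 2.04% in all, with all 11 among them. The genes called with the block included S100a8, S100a9 and Camp, whose UMIs came mostly from 1 KO1 cell. A call with the block does not show that the 2 chimeras gave like differences. Gzma was called at log2 differences of 0.041 in chimera 1 and 0.98 in chimera 2, and Hist1h2ap at −0.11 and −2.06. The median log2 fold change of all genes was 0.0080. p-values rest on 2 animals, and fewer mRNAs per cell and fewer expressing cells cannot be told apart in these sums.

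The gene with the smallest adjusted p was Cdk2ap1 (ENSMUSG00000029394), which encodes a protein that binds Cdk2 and restrains it. It had 41.7 and 38.3 CPM in WT1 and WT2 and 134 and 146 in KO1 and KO2. Both KO libraries lay far above both WT libraries, a log2 fold change of 1.80 ± 0.18 (SE, edgeR adjusted p = 0.011, and 0.068 without the deepest 5% of cells). The fold change was 1.66 outside S phase and mitosis, and the term for a different genotype effect in S phase was 0.12 (edgeR adjusted p = 1.0). Of its 3′ windows, 84.0% also occur in other genes, so that reads of copies cannot be told from its own.

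Anxa1 (ENSMUSG00000024659), which encodes annexin A1, an inhibitor of phospholipase A2, had 119 and 131 CPM in WT1 and WT2 and 270 and 250 in KO1 and KO2. KO was higher in both chimeras, with a log2 fold change of 1.05 ± 0.17 (SE, edgeR adjusted p = 0.0498). The adjusted p in edgeR was 0.11 without the deepest 5% of cells and 0.29 without KO1. The log2 fold change was 0.48 outside S phase and mitosis, and the difference between the classes, 0.55, did not pass (edgeR adjusted p = 0.24). A single KO1 cell held 37 of the 167 Anxa1 UMIs of its library. None of its 3′ windows occur in another gene.

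Gbp6 (ENSMUSG00000104713), an interferon-induced guanylate-binding protein, was the only gene lower in KO in this fit, with 42.6 and 45.9 CPM in WT1 and WT2 against 8.10 and 6.33 in KO1 and KO2. The log2 fold change was −2.59 ± 0.38 (SE, edgeR adjusted p = 0.035) in S-phase cells and −1.69 outside. The adjusted p was 0.069 in DESeq2 and, in edgeR, 0.11 without the deepest 5% of cells and 0.13 without KO1. A second gene model carries the same symbol, and 99.5% of the 3′ windows occur in other genes, so that the level is uncertain. Mir142hg, the host transcript of a microRNA of blood cells, had 13.3, 3.83, 59.9 and 68.0 CPM in WT1, WT2, KO1 and KO2 (log2 fold change 2.78), and none of its 3′ windows are shared.

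The remaining 7 called genes were higher in KO and were mostly copies or poorly known transcripts: AY036118 (log2 fold change 3.24), Gm12840 (2.93), Gm6133 (1.96), Rps27rt (1.52), Rpl6l (1.36), Rpl23a-ps3 (1.29) and Gm8730 (1.25). In AY036118, Rpl6l and Rpl23a-ps3 all 3′ windows occur in other genes. Rps27rt had 173, 94.4, 389 and 386 CPM in WT1, WT2, KO1 and KO2. All 11 genes had the same sign outside S phase and mitosis. They had it also in both chimeras.

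Several genes were called lower by edgeR with the chimera block and not without it. Among them, Gstp1, a glutathione transferase, had 253, 152, 130 and 53.8 CPM in WT1, WT2, KO1 and KO2 (log2 fold change −1.15; edgeR adjusted p = 0.46). Rpl35, a ribosomal protein, had 4217, 3687, 3091 and 1828 CPM (−0.68; edgeR adjusted p = 0.53). Of the others, Gm10076 and Gm10073 had a log2 fold change of −0.87 and −1.32, and Slpi, a protease inhibitor, one of −1.24, with 168, 461, 164 and 99.6 CPM for Slpi in WT1, WT2, KO1 and KO2. A single WT2 cell held 225 of the 361 Slpi UMIs of its library. In Gstp1 and Rpl35 both KO libraries lay below both WT libraries, and KO2 was the lowest. A lack of overlap is common: 19.9% of all genes tested had both KO libraries above both WT libraries and 17.9% had them below.

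None of the genes in 22 lists of cell functions and cell types was called by edgeR without the block when all S-phase cells, all 4 libraries and the standard filter were used. Without a filter on low counts, 8 were higher and 8 lower, beside 57 and 32 of all 12403 genes tested. With at most 1 mitotic UMI per cell 4 were higher, beside 23 of all 4715. Without the 11 cells of other lineages 2 were higher, beside 27 of all 6172. With the chimera block, 12 were higher and 6 lower in KO, beside 1.27% and 0.764% of all genes tested. Of the 12, Lyz2, Camp, S100a8 and S100a9 are markers of myeloid cells or granulocytes, and 1 cell held 1461 of the 1653 S100a8 UMIs of KO1 and another 238 of the 296 Lyz2 UMIs of KO2. Without the 11 cells of other lineages, which were picked by a sum that includes Lyz2, its log2 fold change went from 0.78 to −0.37. Without KO1 that of Camp went from 3.97 to −0.36. DESeq2 without the block, which called 16 genes in all (0.255%), called Cd3e and Id2. The replication lists, without the genes that chose the cells, had members on both sides of 0. The 16 other licensing genes had a median log2 fold change of 0.0044, the 28 polymerase and fork genes one of −0.02, the 16 nucleotide synthesis genes one of −0.14 and the 13 checkpoint genes one of −0.10, beside 0.0080 for all genes. These medians moved with single libraries, and all 4 were above 0 without WT2. Without WT1 they were −0.080, −0.18, −0.23 and −0.18 in the same order, and without WT2 0.066, 0.13, 0.11 and 0.30. Without KO1 the checkpoint genes had 0.17. Mcm3 and Rrm2 belong to the genes that chose the cells, so their levels are given with no test. Mcm3 had 310, 382, 254 and 308 CPM in WT1, WT2, KO1 and KO2, and Rrm2 had 262, 454, 321 and 384 CPM. The genotypes overlapped for Rrm2, and for Mcm3 both KO libraries lay below both WT libraries, KO2 only just below WT1.

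Rpa3, the smallest subunit of the protein that coats single-stranded DNA, was the replication gene called with the block. It had 58.7, 39.6, 92.3 and 120 CPM in WT1, WT2, KO1 and KO2, a log2 fold change of 1.09 ± 0.23 (SE, edgeR adjusted p = 0.17 without and 8.1e-05 with the block). Pcna, the sliding clamp, had 277, 248, 262 and 334 CPM (edgeR adjusted p = 0.87), with overlapping genotypes.

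The 18 tested genes of the G1/S transition and E2F had a median log2 fold change of 0.18, with 15 above 0. This rested on WT1 and KO2: without WT1 the median was 0.057, with 9 above and 9 below 0, and without KO2 it was 0.043, with 11 above and 8 below. Ccnd3, the D-type cyclin most used by lymphocytes, had 313 and 290 CPM in WT1 and WT2 and 437 and 440 in KO1 and KO2. Its log2 fold change was 0.54 ± 0.15 (SE), which passed with the block (edgeR adjusted p = 0.0064) and not without it (edgeR adjusted p = 0.39). Cdk4, its partner kinase, had 231, 305, 275 and 255 CPM and no such separation. The cyclin Ccne1, which with Cdk2 starts S phase, had 61.6, 76.6, 87.4 and 88.6 CPM (log2 fold change 0.36; edgeR adjusted p = 0.76). Of all genes tested, 28.4% were higher in KO in both chimeras and 27.1% lower, and of the 18 these were 9 and 0.

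Histones and chromatin assembly had a median of −0.05 over 16 genes, which was −0.29 without WT1 and 0.067 without WT2. Hist1h2ap had 805, 1243, 748 and 297 CPM in WT1, WT2, KO1 and KO2, a log2 fold change of −0.97 that rested on chimera 2 (−2.06, against −0.11 in chimera 1) and was called with the block. Without it edgeR called Hist1h2ap when no filter was set on low counts and when WT1 was left out. H2afz had 2043, 2308, 2270 and 2104 CPM. DNA methylation and Polycomb genes had a median of 0.10 over 12 genes, and the G2 and mitosis genes that the choice did not use one of −0.011 over 14. Without WT1 these were −0.15 and −0.40, and without WT2 0.24 and 0.30. Without KO2 the second was −0.48 and without KO1 0.15. Tuba1b, an alpha tubulin, had 401, 531, 526 and 707 CPM (log2 fold change 0.41; edgeR adjusted p = 0.046 with the block).

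**Figure D4:**
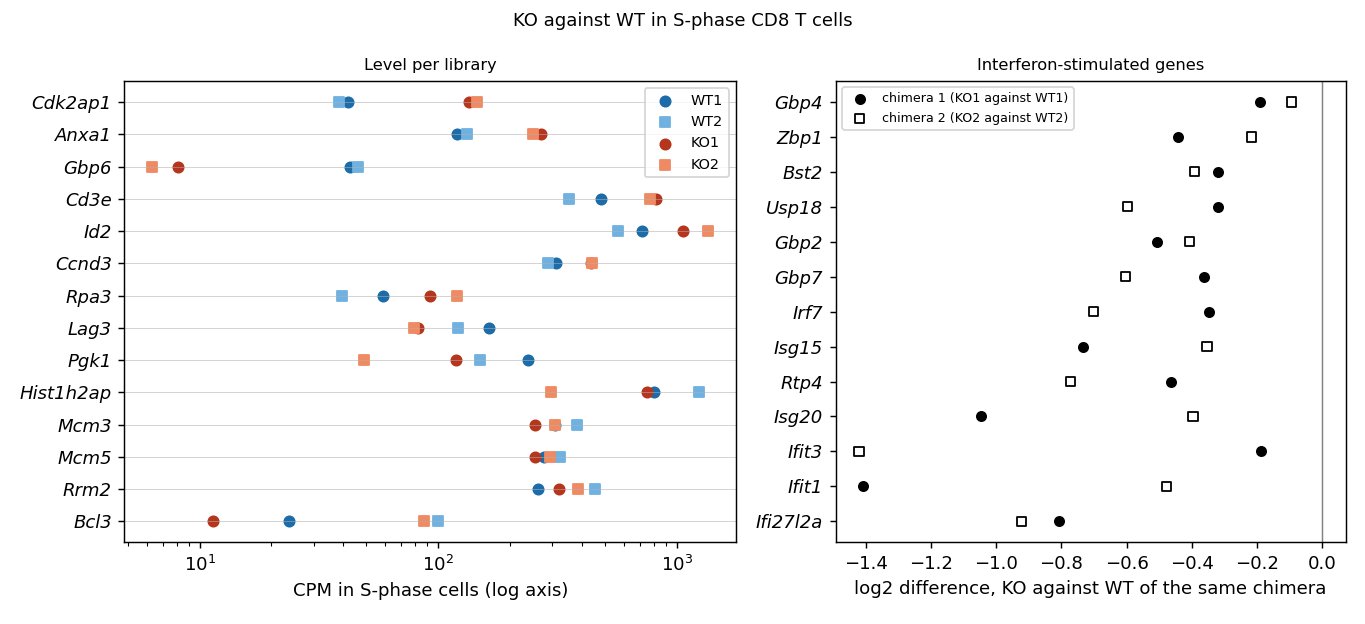
Left, normalised CPM in S-phase cells of the 4 libraries for 14 genes, on a log axis. Right, log2 difference of KO from WT within each chimera for 13 of the 14 tested interferon-stimulated genes, all of which lie below 0 in both chimeras, although only Ifi27l2a was called when the chimera block was added.

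Interferon-stimulated genes were the list whose median lay farthest below that of all genes among the functional lists. All 14 tested members were lower in KO in both chimeras, with a median log2 fold change of −0.50, and in 11 of 14 both KO libraries lay below both WT libraries. The same held for 27.1% and 17.9% of all genes tested. In equal numbers of cells thinned to 2000 UMIs, 4 of 11 tested members were above 0 and the median was −0.33. Above 0 were also 2 of 15 without WT1, 1 of 15 without WT2 and 2 of 16 without KO1. None was called by edgeR without the block at the standard filter and with all 4 libraries. Ifi27l2a, a mitochondrial protein induced by interferon, had 454, 942, 259 and 497 CPM in WT1, WT2, KO1 and KO2 (log2 fold change −0.88), and it was called with the block, although its genotypes overlapped. Without the block it was called when no filter was set and when WT1 or KO2 was left out. Bst2, or tetherin, had 148, 145, 118 and 111 CPM (−0.36; edgeR adjusted p = 0.72). Gbp2, a guanylate-binding protein, had 138, 130, 97.1 and 98.1 CPM (−0.46; edgeR adjusted p = 0.64). Outside S phase and mitosis the log2 fold changes were −0.66, −0.39 and −0.42 for Ifi27l2a, Bst2 and Gbp2, and the term for a different genotype effect in S phase passed for none of the 3 (edgeR adjusted p = 1.0 for each).

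Terminal effector genes had a median of 0.24 over 9 genes, with 8 above 0 and none called, and one of 0.49 without KO1. Klrg1, the receptor that marks short-lived effector cells, had 192, 152, 176 and 221 CPM in WT1, WT2, KO1 and KO2 (log2 fold change 0.20), with overlapping genotypes. Cx3cr1, the fractalkine receptor of cytotoxic effectors, had 49.3, 25.5, 56.7 and 61.7 CPM (0.62; edgeR adjusted p = 0.72). The 6 memory precursor genes tested had a median of 0.10, which was −0.27 without KO1 and −0.067 without WT2, and Tcf7 had 26.5, 21.7, 32.4 and 18.98 CPM (0.07).

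Effector and cytotoxic genes had a median of 0.05 over 14 genes, which was 0.47 without KO1 and −0.15 without KO2. Id2, a transcriptional regulator of effector CD8 T cells, had 713 and 567 CPM in WT1 and WT2 and 1057 and 1356 in KO1 and KO2. Its log2 fold change was 0.91 ± 0.17 (SE), with an adjusted p of 0.13 in edgeR without the block and 0.0099 in DESeq2. It was 0.88 outside S phase and mitosis. Gzma, granzyme A, had 1002, 1129, 1031 and 2221 CPM (0.61), and the chemokine Ccl5 had 15561, 20970, 16893 and 31030 CPM (0.39). Both were high in KO2 alone and were called with the block, and without KO2 the log2 fold change was −0.05 for Gzma and −0.11 for Ccl5. Gzmb, granzyme B, had 2363, 1827, 1998 and 2165 CPM (−0.01; edgeR adjusted p = 1.0).

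T cell receptor and activation genes had a median of −0.22 over 16 genes, which was −0.12 without WT1 and −0.080 without KO2. Cd3e, a signalling chain of the receptor, had 481 and 352 CPM in WT1 and WT2 and 819 and 769 in KO1 and KO2, a log2 fold change of 0.93 ± 0.17 (SE) with an adjusted p of 0.12 in edgeR and 0.013 in DESeq2. Both KO libraries lay above both WT libraries. Its partner Cd3d had 1469, 1205, 1255 and 1269 CPM (−0.08), with overlapping genotypes. Lag3, an inhibitory receptor, had 163 and 121 CPM in WT1 and WT2 and 82.6 and 79.1 in KO1 and KO2 (−0.82; edgeR adjusted p = 0.29, with the block 0.0091). Cd8a had 533, 489, 484 and 473 CPM (−0.10; edgeR adjusted p = 0.92).

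Glycolysis genes had a median of −0.14 over 14 genes, which was −0.050 without WT1. Pgk1, a kinase of the pathway, had 238, 149, 118 and 49.0 CPM in WT1, WT2, KO1 and KO2 (log2 fold change −1.22) and was lower in KO with the block, as was Eno1 (−0.37), the enolase, at 1112, 974, 983 and 630 CPM, where KO1 and WT2 overlapped. Of the 3′ windows, 45.7% for Pgk1 and 41.5% for Eno1 occur in other genes. Gapdh had 1698, 1330, 1831 and 1548 CPM (0.16; edgeR adjusted p = 0.89). Bcl3 partners and NF-kB genes had a median of −0.24 over 11 genes, which was −0.11 without WT2 or KO1. Nfkbia, the inhibitor IkB-alpha, had 134, 181, 117 and 146 CPM (−0.26; edgeR adjusted p = 0.84), with overlapping genotypes.

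Whether the genotype difference in S-phase cells was another than outside S phase and mitosis was tested with library as a block on 10793 genes. The term passed for 12 genes in the direction of higher KO levels and for 3 in the other (0.139% called). Of these 15, 4 also passed without the 11 cells of other lineages, namely Hist1h2ap, 2810417H13Rik, Ccl3 and Cox6a2. Those cells were picked by genes that include some of the 15. Cox6a2 had 2, 8, 0 and 0 UMIs in the S-phase cells of WT1, WT2, KO1 and KO2, and 1 WT2 cell held 7 of the 8. Hist1h2ap had a term of 1.29 ± 0.16 (SE, edgeR adjusted p = 4.3e-08), since KO was lower by 0.97 in S-phase cells and by 2.19 outside. There it stood at 123, 92.5, 36.2 and 10.96 CPM in WT1, WT2, KO1 and KO2. 2810417H13Rik, with S-phase levels given above, had 33.3, 35.1, 18.1 and 19.99 CPM outside, and its term was 0.91 ± 0.16 (SE, edgeR adjusted p = 0.00014). Hist1h2ap and 2810417H13Rik were both high in S-phase cells, while the class outside kept cells with replication sums of up to 4. A sum of exactly 4 was found in 74, 61, 42 and 42 cells of WT1, WT2, KO1 and KO2. The terms of these genes cannot be told apart from the number of such cells, which was not tested. The chemokine Ccl3 had 19.1, 39.3, 35.6 and 140 CPM in S-phase cells and 32.5 to 40.7 CPM outside, so that KO2 alone stood high, where 1 cell held 67 of the 89 Ccl3 UMIs. limma-voom gave these 3 genes adjusted p-values of 0.28, 0.38 and 0.91.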

How the data were processed

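Splenic H-2Db-GP33+ CD8+ cells were captured on the 10x Genomics Chromium platform (Single Cell 3′ kit v2, paired-end 26x98 bp), 1 library per genotype and chimera. The authors deposited unfiltered UMI counts per gene and barcode, made with Cell Ranger 2.2.0; the submitters' processing notes name mm10 and bcl2fastq 2.17. The files held 21193300 (WT1), 20358780 (WT2), 22922219 (KO1) and 22672343 (KO2) UMIs, so library totals were close and depth per cell was not. The limits on genes and mitochondrial UMIs per cell were those of the study; its removal of small clusters was not applied, and no doublet caller was run; leaving out the deepest 5% of S-phase cells was an alternative. S-phase cells summed to 1099701, 789517, 645612 and 636074 UMIs.

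Counts were summed over the S-phase cells of each library and tested by the quasi-likelihood test of edgeR 4.0.16 in R 4.3.3, after filterByExpr and TMM scaling, with Benjamini-Hochberg adjustment at 0.05 and 2 residual degrees of freedom. Chimera as a block, DESeq2 1.42.0, limma 3.58.1, other thresholds, thinning and leaving out each library were alternatives. The class by genotype term was fitted on 8 sums with library as block. Shares were compared with 2-sided exact permutation tests. The steps were tested on simulated counts with known changes and 1 dispersion for all genes. There edgeR without the block recovered 44.3% of 2-fold and 83.2% of 3-fold changes, and with the block 46.4% and 87.4%. The class by genotype term recovered 24% and 66%. A gene that was not called may thus still differ. The libraries were paired by the number in their titles, on the inference that WT and KO cells of a number came from the same animal. Across 2802 genes of at least 50 CPM the correlation of WT1 minus WT2 with KO1 minus KO2 was −0.085. The differences between the numbers were thus not shared by the genotypes, and the pairing has no check in these values.

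The cells, gene lists and tests were chosen with earlier results of these data known. Genes named were Bcl3, the 16 genes of the choice, list members called and the 4 most abundant of each list, up to 10 called genes in each direction, filled up with genes called with the block by adjusted p, the 15 highest and 10 lowest genes of at least 50 CPM between classes, and up to 10 genes called for the class by genotype term. Segments of antigen receptors and sex-linked markers were kept out. Some genes that met these rules are not reported here, but they stay in the counts and medians of their lists. Some of these are given only within the counts of their list. Promoters are from RefSeq (GRCm38.p6) and gene positions from GENCODE M21; 3′ windows of 98 bases were taken from the last 300 bases of its transcripts.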

Additional observations from a re-analysis of the deposited data

Results flagged for a closer look

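The genotype difference in S-phase cells minus that in CD8 T cells outside S phase and mitosis passed edgeR's test for 15 genes, and the 10 with the smallest adjusted p are given here on the log2 scale. For 8 of them the S-phase value came mostly from single cells. Mcpt8 had −3.20 and Prss34 −3.32, with 0, 457, 152 and 0 CPM of Mcpt8 in WT1, WT2, KO1 and KO2, where 1 WT2 cell held 359 of 361 UMIs and 1 KO1 cell 94 of 98. Ngp had 4.23, Lcn2 4.09, Wfdc21 3.92, Camp 3.30, Ifitm6 3.01 and S100a9 2.10, all high in KO1 alone, where 1 cell held 811 of 952 UMIs of S100a9, 327 of 347 of Camp, 379 of 401 of Ngp, 155 of 162 of Lcn2, 45 of 48 of Ifitm6 and 97 UMIs of Wfdc21. Without the 11 cells of other lineages, a choice made after seeing the data, none of these 8 passed (edgeR adjusted p = 1.0 for each). Those cells were picked by a sum that includes Mcpt8, Prss34, Camp and S100a9, so for these 4 the loss follows from the choice of cells and is no test. For Ngp, Lcn2, Wfdc21 and Ifitm6 the loss is no test either, since 1 cell held nearly all of their KO1 UMIs.

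Hist1h2ap had 1.29 and 2810417H13Rik 0.91, and neither can be told apart from the number of cells just under the replication limit in each library. Without the 11 cells they had 1.26 (edgeR adjusted p = 6.8e-21) and 0.88 (edgeR adjusted p = 1.6e-07). With limma-voom the adjusted p was 0.28 and 0.38.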

How the results depend on the processing

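The lower share of S-phase cells in KO kept its sign in all 15 alternatives; it ran from −0.82 percentage points with limits of 8 to −3.60 with cells thinned to 2000 UMIs (limits of 3), which kept 3763 of 7297 CD8 T cells of WT2. The S-phase share of cycling cells also kept its sign, at −1.18 with limits of 3, −5.07 with limits of 8, −8.53 and −2.55 when thinned to 2000 and 1000 UMIs, −5.32 without Tk1 and Mcm6 and −4.97 with at most 5% mitochondrial UMIs. Leaving out 1 library at a time, the difference in median UMIs ran from −490 to 2136 (−132 without KO1) and in median genes from −36.5 to 552. The difference of licensing from histone genes ran from 0.37 to 1.62.

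The number of genes called higher and lower in KO was 80 and 48 with the replicate block, 16 and 0 with DESeq2, 57 and 32 without a filter, 23 and 3 with at most 1 mitotic UMI, 3 and 1 in equal numbers of thinned cells, 0 and 0 without the deepest 5% of cells (edgeR), and 2 lower without shared barcodes. Without the cells of other lineages, chosen after seeing the data, it was 27 and 3. Leaving out 1 library, with the lone library of its genotype assumed to vary like the other group, gave 5 to 71 higher and 2 to 31 lower, with 5 and 2 without KO1, 71 and 31 without WT1, 49 and 22 without WT2 and 43 and 19 without KO2. The 11 called genes kept their sign in every setting with a value. Of them, 8 were called with RLE size factors and 8 with a replication sum of at least 8. In equal numbers of thinned cells, 3 of the 9 with a value were called. Members of lists called were 12 higher and 6 lower with the replicate block, 2 higher with DESeq2, 8 and 8 without a filter, 4 higher with at most 1 mitotic UMI, 2 higher without the cells of other lineages, and 0 to 7 higher and 0 to 7 lower when 1 library was left out. The class by genotype term called 1 higher with limma-voom, 5 lower without a filter, 2 and 0 in thinned cells, 11 lower against mitotic cells and 5 and 1 without the cells of other lineages, and 8 to 24 higher and 1 to 11 lower when 1 library was left out. The block changed no share, since it averages the same differences. Of 528 values of 38 single genes under alternatives, 26 turned sign. When 1 library was left out, the log2 fold change ran from −2.36 to 1.03 for Bcl3, from −0.36 to 4.94 for Camp, from −0.11 to 0.76 for Ccl5, from −0.047 to 1.05 for Gzma, from −0.37 to 0.21 for Lig1, from −0.11 to 0.18 for Mcm6, from −0.37 to 0.40 for Rrm2, from −0.51 to 0.75 for Tk1, from −0.54 to 0.21 for Tyms and from −0.21 to 0.50 for Ung. Other values that turned sign were −0.037 and −0.10 for Mcm6 in thinned cells and with at most 1 mitotic UMI, −0.025 for Ung, −0.27 for Tk1 and 0.051 for Rrm2 with at most 1 mitotic UMI, 0.019 for Lig1 at a sum of at least 8, −0.0054, −0.0091 and −0.019 for Tk1 with DESeq2, without a filter and without shared barcodes, 0.017 and 0.0018 for Rrm2 with the replicate block and without the deepest 5% of cells, and −0.37 for Lyz2 without the cells of other lineages. Lig1, Mcm6, Rrm2, Tk1, Tyms and Ung chose the cells, so their values are descriptions without a test. Of the other genes named here, none passed the test in a setting where its value turned. The causes were not tested. With 99 to 220 cells a library, low genes are limited by counting.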
